A study of Mus musculus with 13 samples.

Results

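The retinoic acid pathway was followed through the chemical reprogramming of mouse fibroblasts by 6 of its genes: the cytosolic retinoic acid binding proteins Crabp1 and Crabp2, the retinal dehydrogenase Aldh1a2, and the receptors Rara, Rarb and Rarg. They were chosen by symbol, and 6 of 6 were found among the 15176 genes of the table. The 13 libraries of total RNA fell into 6 groups. Colonies and clusters positive for an Oct4-GFP reporter (GFP-positive colonies and GFP-positive clusters, 1 library each) came from embryonic fibroblasts of a C57xICR background treated with the mix coded VC6TF plus Z. Oct4-GFP-negative cells (GFP-negative, n = 2) came from the same kind of fibroblasts under VC6TF without Z. Pluripotent lines made by this route from C57xICR cells, CiPSC 6 and CiPSC 11 (1 library each), carried the code VC6TFMB plus Z. Embryonic stem cells were the R1 line on a 129 background, untreated (ESC, n = 4), and untreated C57xICR embryonic fibroblasts (MEF, n = 3) were the start. Per the labels, GFP-negative cells, clusters and colonies had been picked for RNA, and ESC and CiPSC had been kept on feeders of mitomycin C-treated MEF. Each CiPSC library is 1 line. The labels do not spell out the compound codes, so the sources used here do not say whether a mix held a retinoid.

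Retinol is taken up by cells, oxidised to retinal by retinol dehydrogenases and then to retinoic acid by the Aldh1a enzymes. Retinoic acid is carried by the Crabp proteins, binds the Rar receptors, which pair with Rxr partners on response elements in DNA, and is broken down by Cyp26 hydroxylases. It patterns the embryo and is widely used to push stem cells out of the pluripotent state.

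Values are RPKM, reads per kilobase and per M reads. For 10 libraries the kilobases are those of the gene span, introns included, and the estimated depth was 8.92 to 17.8 M reads. For CiPSC 6, CiPSC 11 and ESC replicate 4 the kilobases are exonic and the depth is not known, so these 3 libraries are compared only with one another. No label says that libraries of 1 group came from separate cultures. The 10 gene-span libraries form 2 sets by the value that stands for unmeasured genes. The colonies, ESC replicate 3 and MEF replicate 3 held 0.001, and the other 7 held exact 0. Fibroblast markers (8 of 10 listed in the table) summed to 49.1 RPKM in the colonies, 204 in the clusters, 261 and 306 in GFP-negative, 11.1 to 26.4 in ESC and 720 to 2760 in MEF. Pluripotency markers (10 of 10) summed to 650 in the colonies, 1.53 in the clusters, 0.689 and 7.10 in GFP-negative, 1000 to 1260 in ESC and 0.300 to 2.14 in MEF. Pou5f1, which encodes Oct4, was at 0.260 in the clusters and at 0.191 and 0.429 in GFP-negative cells, so the RNA of the clusters did not show the label's difference. In the colonies Pou5f1 was at 124 and Nanog at 0.0418 RPKM. Primitive endoderm markers (4 of 7) summed to 42.2 in the colonies and to at most 0.310 in the gene-span ESC libraries. MEF replicate 3 stood apart from replicates 1 and 2, with macrophage markers (4 of 6) summing to 188 RPKM beside 18.1 and 29.3.

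The promoter windows of Rarb and of the hydroxylase gene Cyp26a1 are shown because the letters of both match the classical retinoic acid response element, a direct repeat of a hexamer with 5 bases between the copies. The hexamer AGTTCA was searched for, as were its variants with another start, namely GGTTCA, and with another middle, namely AGGTCA, and with both changes, namely GGGTCA. RefSeq windows on GRCm38.p6, from 250 bases before to 50 after a start, were searched on both strands. The repeat was found in windows of 31 of 27025 genes (0.115%), and in 2 of the 47 pathway genes with a window, Rarb and Cyp26a1. Of the 6 genes, 5 had a window (Crabp1, Aldh1a2, Rara, Rarb and Rarg). A repeat with 2 bases between the hexamers was in the windows of 0 of these 5 and of 0.311% of all genes. Capitals mark the repeat, which begins 53 bases before the Rarb start and 32 bases before the Cyp26a1 start. It reads forward in the Rarb window and in reverse in the Cyp26a1 window. The Rarb window lies at chr14:16575427-16575726 on the minus strand, inside the annotated span of the gene, and the Cyp26a1 window at chr19:37697558-37697857 on the plus strand.
Rarb: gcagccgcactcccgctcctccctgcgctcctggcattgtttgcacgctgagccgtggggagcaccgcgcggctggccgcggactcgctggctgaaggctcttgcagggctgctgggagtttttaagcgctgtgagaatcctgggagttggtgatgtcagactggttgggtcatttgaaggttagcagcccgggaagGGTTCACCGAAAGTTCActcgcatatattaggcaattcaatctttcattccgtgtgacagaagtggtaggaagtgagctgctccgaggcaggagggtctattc
Cyp26a1: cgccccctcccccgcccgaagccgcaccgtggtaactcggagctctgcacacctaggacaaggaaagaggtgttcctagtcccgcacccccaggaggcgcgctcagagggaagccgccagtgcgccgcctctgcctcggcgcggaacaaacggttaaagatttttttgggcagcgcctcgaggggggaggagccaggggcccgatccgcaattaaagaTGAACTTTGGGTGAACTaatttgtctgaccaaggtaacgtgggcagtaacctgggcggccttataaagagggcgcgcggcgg

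Crabp1 averaged 102 RPKM in GFP-negative cells and was at most 6.13 RPKM in any gene-span ESC or MEF library, and it was lowest in the colonies. It encodes a small protein that binds retinoic acid in the cytosol and is known from neural crest and limb mesenchyme. The gene spans 8363 bases on chromosome 9 (54764748 to 54773110, plus strand, GRCm38), and no other annotated gene overlaps it. Its level was 0.155 RPKM in the colonies, 50.6 in the clusters, 105 and 99.0 in GFP-negative replicates 1 and 2, 1.06, 0.701 and 1.12 in ESC replicates 1 to 3, and 1.90, 2.82 and 6.13 in MEF replicates 1 to 3. The GFP-negative libraries and the clusters lay above every ESC and MEF library, and the colonies below all of them. These values rest on about 13 reads in the colonies, 3771 in the clusters, 9687 and 8549 in GFP-negative, 71 to 118 in ESC and 188 to 493 in MEF.

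Crabp1 rose in GFP-negative cells, averaging 102 ± 3.99 RPKM there, against 3.62 ± 2.23 in MEF (SD, n = 2 and 3), a ratio of means of 28.2. The log2 change of RPKM + 1 was 4.58 ± 0.37 (SE, limma adjusted p = 0.000205). Both GFP-negative libraries were higher than all 3 MEF libraries. Against ESC, at 0.961 ± 0.227 RPKM (SD, n = 3), the ratio of means was 106 and the log2 change 5.72 ± 0.37 (SE, limma adjusted p = 3.11e-05). The 2 comparisons share the GFP-negative libraries. The call held under every alternative run for both, with log2 changes of 4.30 to 5.06 against MEF and 5.62 to 6.64 against ESC. Of all genes tested, 3.53% were called higher and 4.09% lower in GFP-negative cells than in MEF, and 8.35% were called higher and 14.3% lower than in ESC. Of the 8 fibroblast markers, Col1a1, Col1a2, Col3a1, Col6a1 and Postn were lower in both GFP-negative libraries than in any MEF library, Thy1 and Prrx1 overlapped, and Twist1 was higher, at 59.6 and 82.0 RPKM in GFP-negative cells, against 19.5 to 34.4 in MEF. Their part in the Crabp1 level was not tested. Neural and neural crest markers (5 of 7) summed to 17.8 and 41.9 RPKM in GFP-negative cells and 8.21 to 14.4 in MEF, with Nes alone at 17.4 and 39.9 in GFP-negative cells and the neural crest genes Sox10 and Foxd3 at 0 in both of these libraries. Their part in the result was not tested. In bulk RNA, more cells with the transcript and more transcript per cell cannot be told apart.

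In ESC, Crabp1 was at 0.961 ± 0.227 RPKM, lower than the 3.62 ± 2.23 in MEF (SD, n = 3 each). The log2 change was −1.14 ± 0.33 (SE, limma adjusted p = 0.0369), and the ranges did not overlap. ESC were of another strain than MEF and GFP-negative cells and were kept on feeders. Strain, feeders and cell type cannot be told apart in the comparisons with ESC. Rarb and Aldh1a2 were too low to enter this test. Of the 6 genes, Crabp1 was the only one called in it, where 7.97% of all genes were called lower, 7.95% higher and 15.9% in all. This call was lost in 8 of the alternatives, among them leaving out MEF replicate 3 (log2 −0.77 ± 0.23, limma adjusted p = 0.0528), MEF replicate 2 (adjusted p = 0.0742), ESC replicate 1 (0.0833), ESC replicate 2 (0.107) or ESC replicate 3 (0.0639).

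Among clusters and colonies, compared without a test, Crabp1 was at 50.6 RPKM in the clusters, against 102 ± 3.99 in GFP-negative cells (SD, n = 2). It was at 0.155 in the colonies, against 50.6 in the clusters, which is 327-fold lower (95% interval 191 to 614, counting error only). The colonies lay below all 3 ESC libraries, with 13 reads beside 71 to 118. Colonies and clusters belong to different library sets, with upper quartiles of 4.16 and 2.92 RPKM over the tested genes. Library set and stage therefore cannot be told apart in any comparison of the colonies with the clusters.

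**Figure D1:**
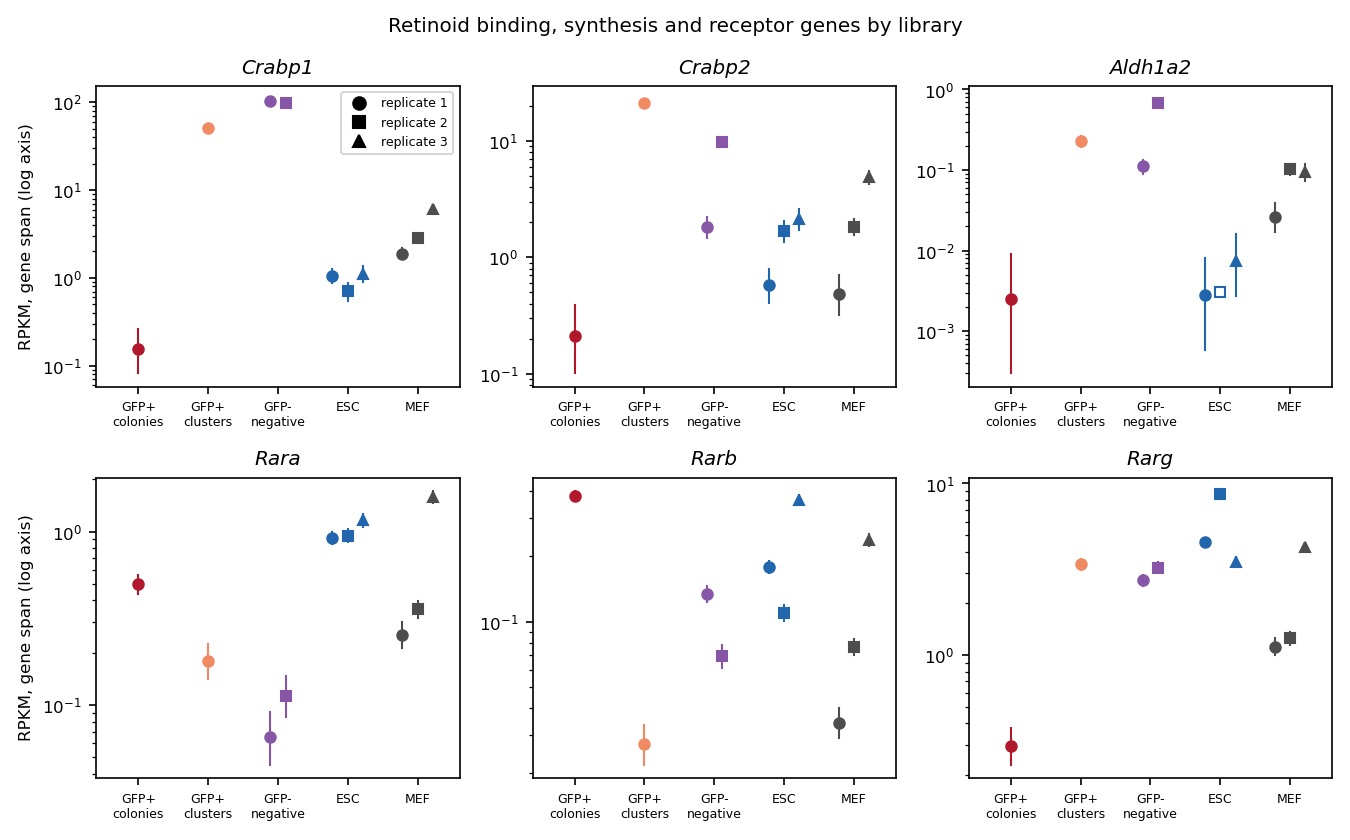
RPKM per kilobase of gene span (log axis) of the 6 retinoid genes in each of the 10 gene-span libraries, by group, with 95% counting intervals as bars; the open symbol stands at the floor of 3 reads for a library with no read. Crabp1 is near 100 RPKM in both GFP-negative libraries and at 0.155 in the colonies, while Rara has its 2 lowest values in GFP-negative cells.

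Crabp2, a second retinoic acid carrier that is known to pass its ligand to the receptors in the nucleus, did not follow Crabp1. It spans 4711 bases on chromosome 3 (87948666 to 87953376, plus strand). Its level was 0.211 RPKM in the colonies, 21.2 in the clusters, 1.82 and 9.84 in GFP-negative replicates 1 and 2, 0.575, 1.67 and 2.12 in ESC replicates 1 to 3, and 0.483, 1.82 and 4.88 in MEF replicates 1 to 3. The clusters were highest and the colonies lowest of the 10 libraries. The GFP-negative libraries lay far from each other, and the ranges of GFP-negative, ESC and MEF overlapped. The gene was not called in any comparison. Its log2 change was 0.93 ± 0.68 in GFP-negative cells against MEF (limma adjusted p = 0.429), 1.23 ± 0.68 in GFP-negative cells against ESC (0.194) and −0.30 ± 0.60 in ESC against MEF (0.759). In the clusters it was 3.72-fold higher than in the pooled GFP-negative libraries (interval 3.34 to 4.14, counting error only), with 889 reads, against 574. In the colonies it was 100-fold lower than in the clusters (interval 54.2 to 210, counting error only), with 10 reads, against 889.

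Aldh1a2, which makes retinoic acid from retinal in mesenchyme of the embryo, was low everywhere on the gene-span scale and did not pass the filter on low values, so the main test did not include it. It spans 80455 bases on chromosome 9 (71215789 to 71296243, plus strand), of which 2264 are exonic, and 412 overlap the antisense gene Gm48124, not analysed here. It was at 0.00248 RPKM in the colonies, 0.227 in the clusters, 0.111 and 0.688 in GFP-negative replicates 1 and 2, 0.00280, 0 and 0.00744 in ESC replicates 1 to 3, and 0.0262, 0.102 and 0.0943 in MEF replicates 1 to 3. Colonies and ESC lay below all MEF libraries, and GFP-negative cells and clusters above them. In ESC replicate 2, with 0 reads, the floor of 3 reads stands at 0.00308 RPKM. In reads these were 2 in the colonies, 163 in the clusters, 99 and 572 in GFP-negative, 3, 0 and 6 in ESC and 25, 146 and 73 in MEF. In the alternative that divides lengths out (RPKM times gene length, scaled to a sum of 1 M per library, log2 of value + 1), Aldh1a2 was included. There its log2 change was 4.68 ± 0.81 in GFP-negative cells against ESC (SE, limma adjusted p = 0.00118) and −2.60 ± 0.73 in ESC against MEF (0.0199), both called, and 2.08 ± 0.81 in GFP-negative cells against MEF (0.109), not called. That alternative called more genes than the main fit in each of these 3 comparisons, over its own set of genes. In the fit on RPKM + 1 with no filter Aldh1a2 could not be called (limma adjusted p = 0.0615 to 0.652). All its values lay under 1 RPKM, so no change could reach the log2 of 1 that a call needed. In the colonies it was 91.8-fold lower than in the clusters, with a counting interval of 25 to 764 on 2 reads, against 163.

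Rara, the most widely expressed of the retinoic acid receptors, was lowest where Crabp1 was highest. It spans 47125 bases on chromosome 11 (98927818 to 98974942, plus strand), with 107 of them shared with the small gene Gm22061, not analysed here. Its level was 0.496 RPKM in the colonies, 0.178 in the clusters, 0.0652 and 0.113 in GFP-negative replicates 1 and 2, 0.921, 0.945 and 1.16 in ESC replicates 1 to 3, and 0.254, 0.356 and 1.59 in MEF replicates 1 to 3. Both GFP-negative libraries lay below all ESC and all MEF libraries, on 34 and 55 reads beside 539 to 577 in ESC and 142 to 719 in MEF. On RPKM + 1 the log2 changes were small, since most values lay under 1. They were −0.88 ± 0.29 in GFP-negative cells against ESC (SE, limma adjusted p = 0.0502), −0.59 ± 0.29 against MEF (0.248) and 0.29 ± 0.26 in ESC against MEF (0.461), none of them called. With lengths divided out Rara was called lower in GFP-negative cells than in ESC (log2 −3.33 ± 0.66, adjusted p = 0.00252) and than in MEF (−2.32 ± 0.66, adjusted p = 0.0371). With a pseudocount of 0.1 the first of these was called (−2.56 ± 0.62, adjusted p = 0.0115) and the second was not (−1.79 ± 0.62, adjusted p = 0.0882). Without MEF replicate 3 the log2 change of RPKM + 1 against MEF was −0.26 ± 0.16 (adjusted p = 0.382). In the colonies Rara was 2.78-fold higher than in the clusters (interval 2.14 to 3.66, counting error only), which are of the other library set.

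Rarb, a receptor gene that is itself a known target of retinoic acid, was under 0.5 RPKM in all 10 libraries and did not pass the filter. It was at 0.380 in the colonies, 0.0272 in the clusters, 0.134 and 0.0691 in GFP-negative replicates 1 and 2, 0.179, 0.110 and 0.366 in ESC replicates 1 to 3, and 0.0341, 0.0763 and 0.239 in MEF replicates 1 to 3. The groups overlapped, and the 3 highest libraries were the colonies, ESC replicate 3 and MEF replicate 3, the 3 that held 0.001 for unmeasured genes. The part of this set in the level was not tested. Read estimates were 1483 in the colonies, 94 in the clusters, 577 and 277 in GFP-negative, 518 to 1424 in ESC and 157 to 892 in MEF. The annotated span is 388318 bases (chromosome 14, 16430839 to 16819156, minus strand) with 5265 exonic bases, so intronic reads cannot be told apart from exonic ones. Of the span, 4624 bases overlap Top2b on the other strand, and reads of the genes cannot be told apart there unless strand was used, which no source states. Top2b, a DNA topoisomerase, was at 0.563 RPKM in the colonies, 0.279 in the clusters, 0.560 and 0.425 in GFP-negative, 0.589 to 1.495 in ESC and 1.44 to 1.84 in MEF. With lengths divided out Rarb was not called, with log2 changes of 0.27 ± 0.74 in GFP-negative cells against MEF (limma adjusted p = 0.85), −0.99 ± 0.74 in GFP-negative cells against ESC (0.318) and 1.26 ± 0.66 in ESC against MEF (0.179). The colonies were 14.0-fold higher than the clusters (interval 11.4 to 17.4, counting error only).

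Rarg, a receptor known from early embryo, mesenchyme and skin, was lowest in the colonies and at 1.12 RPKM or more in the other 9 libraries. It spans 22580 bases on chromosome 15 (102234938 to 102257517, minus strand). It was at 0.295 RPKM in the colonies, 3.38 in the clusters, 2.73 and 3.23 in GFP-negative replicates 1 and 2, 4.55, 8.66 and 3.50 in ESC replicates 1 to 3, and 1.12, 1.25 and 4.24 in MEF replicates 1 to 3. ESC and MEF overlapped through MEF replicate 3. The log2 change in ESC against MEF was 1.09 ± 0.41 (SE, limma adjusted p = 0.0848), not called. It was called without MEF replicate 3 (1.51 ± 0.33, adjusted p = 0.0161), among the 7 libraries with exact 0 (1.75 ± 0.36, adjusted p = 0.0336) and with lengths divided out (1.60 ± 0.51, adjusted p = 0.0357). In GFP-negative cells it was at 0.44 ± 0.45 against MEF (adjusted p = 0.584) and −0.65 ± 0.45 against ESC (0.303), although both GFP-negative libraries lay below all 3 ESC libraries. In the colonies Rarg was 11.4-fold lower than in the clusters (interval 8.88 to 14.9, counting error only), with 67 reads, against 680.

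Set side by side, Crabp1 was the only 1 of the 6 genes called in GFP-negative cells against MEF and against ESC. In these comparisons 7.62% and 22.7% of all genes were called in either direction. Rarb and Aldh1a2 did not pass the filter and could not be called, and the RPKM + 1 scale held the changes of Rara small. With lengths divided out, Rara was also called in both comparisons and Aldh1a2 in the one against ESC. That fit, over its own set of genes, called 1802 genes against MEF and 4611 against ESC. The main fit called 811 and 2415, so the shares above do not apply to it. In the clusters against GFP-negative cells, Crabp2 was the only 1 of the 6 past 2-fold in RPKM + 1 (24.6% of all genes were, and 11.4% were higher, 13.2% lower), and Crabp1 was just under it, with a log2 difference of −0.99. In the colonies against the clusters, Crabp1, Crabp2 and Rarg were more than 2-fold lower in RPKM + 1 and 0 of the 6 more than 2-fold higher. Of all genes passing the filter, 12.6% were lower and 27.3% higher, 39.9% in all. Rara, Rarb and Aldh1a2 lay under 1 RPKM in colonies, clusters and GFP-negative cells, so they could not pass 2-fold on that scale. In reads, Rara was 2.78-fold and Rarb 14.0-fold higher in the colonies than in the clusters. MEF replicate 3 was the highest MEF library for 5 of the 6 genes and ESC replicate 3 the highest gene-span ESC library for 5 of 6. The same count was not made over all genes. The upper quartile of the tested genes was 4.13 RPKM in MEF replicate 3, against 3.105 and 3.114 in replicates 1 and 2. It was 4.29 in ESC replicate 3, against 3.32 and 3.38 in replicates 1 and 2. The part of this difference in the order was not tested.

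**Figure D2:**
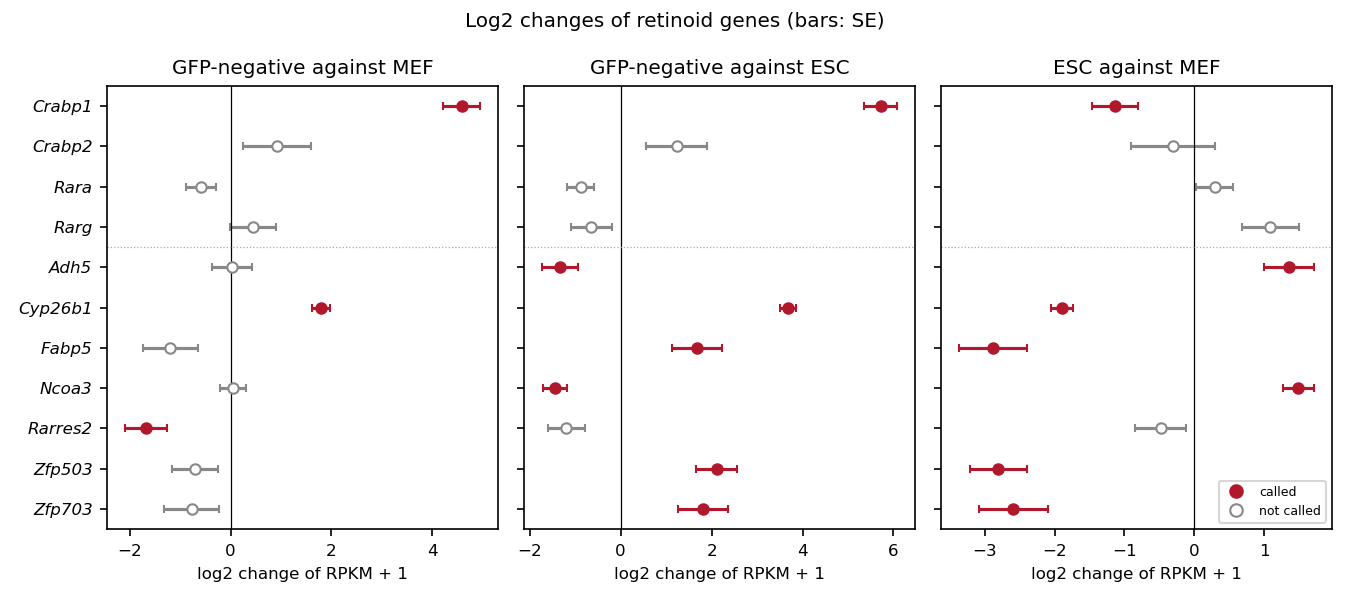
Log2 change of RPKM + 1 (x axis) with its SE as a bar for the 4 of the 6 genes that passed the filter (above the dotted line) and for other pathway genes called in at least 1 comparison, in GFP-negative cells against MEF and against ESC and in ESC against MEF; filled red points were called. Crabp1 stands at 4.58 and 5.72 in the GFP-negative comparisons, apart from the other 3 of these genes.

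The wider pathway list held 67 genes, of which 54 were in the table and 35 passed the filter. In GFP-negative cells against MEF, 2 rose and 1 fell, where 3.53% of all genes were called higher and 4.09% lower, and the median log2 change was −0.02 beside −0.13 over all genes. Cyp26b1, a retinoic acid hydroxylase of mesenchyme, was at 11.8 and 13.2 RPKM in GFP-negative replicates 1 and 2, against 3.24, 3.03 and 2.45 in MEF replicates 1 to 3 (log2 1.79 ± 0.17, limma adjusted p = 0.000516). The groups did not overlap. Rarres2, the chemokine chemerin, was at 0.0304 and 0.130 in GFP-negative cells, against 0.851, 4.57 and 2.97 in MEF (log2 −1.68 ± 0.41, limma adjusted p = 0.0406). That call was lost on leaving out MEF replicate 2, MEF replicate 3, GFP-negative replicate 1 or GFP-negative replicate 2 (limma adjusted p = 0.0704 to 0.148). Of the 4 receptors and the 10 receptor co-regulators tested, 0 were called in this comparison, which called 7.62% of all genes.

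In GFP-negative cells against ESC, 5 of the 35 were called higher and 2 lower, beside 8.35% and 14.3% of all genes. The median log2 change was −0.09, and over all genes −0.25. Cyp26b1 was far apart, since ESC replicates 1 to 3 held 0.0276, 0.0947 and 0.0229 RPKM on 5 to 26 reads (log2 3.69 ± 0.17, limma adjusted p = 6.76e-06). The others called higher were Crabp1 and Fabp5, a fatty acid binding protein that also binds retinoic acid (1.69 ± 0.55, limma adjusted p = 0.0461). So were the zinc-finger genes Zfp503 (2.11 ± 0.46, limma adjusted p = 0.00918) and Zfp703 (1.82 ± 0.55, limma adjusted p = 0.0361). Those called lower were the alcohol dehydrogenase Adh5 (−1.34 ± 0.40, limma adjusted p = 0.034) and the receptor coactivator Ncoa3 (−1.44 ± 0.25, limma adjusted p = 0.00369). GFP-negative replicates 1 and 2 differed in several of these, with Fabp5 at 14.9 and 3.43 RPKM and Zfp703 at 2.06 and 10.54. Without GFP-negative replicate 1 Fabp5 was not called (adjusted p = 0.267), and without GFP-negative replicate 2 neither Zfp703 (0.178) nor Adh5 (0.134) was called. Leaving out any 1 of ESC replicates 1 to 3 also ended the calls of Fabp5, Zfp703 and Adh5 (adjusted p = 0.0555 to 0.117).

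In ESC against MEF, 2 of the 35 were called higher and 5 lower, beside 7.95% and 7.97% of all genes. The median log2 change was −0.08, and over all genes 0.14. Ncoa3 was at 2.63 to 3.25 RPKM in ESC, against 0.207 to 0.573 in MEF (log2 1.49 ± 0.23, limma adjusted p = 0.00228), and Adh5 at 13.1 to 16.0, against 4.36 to 6.10 (1.36 ± 0.36, adjusted p = 0.0252). Beside Crabp1, those called lower were Fabp5, Cyp26b1, Zfp503 and Zfp703. Their log2 changes were −2.88 ± 0.49, −1.89 ± 0.15, −2.81 ± 0.41 and −2.59 ± 0.49 (limma adjusted p = 0.00397, 9.09e-05, 0.00188 and 0.00666). Fabp5, which alone of these is a binding protein like Crabp1, was at 0.590 to 2.45 RPKM in ESC, against 14.8 to 20.9 in MEF. Adh5 lost its call on leaving out MEF replicate 1, MEF replicate 2 or any 1 of ESC replicates 1 to 3 (limma adjusted p = 0.0543 to 0.0819).

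The colonies and clusters, with 1 library each, are described for list members chosen after their values were seen. In the colonies Cyp26a1, the hydroxylase that is switched on by retinoic acid in many cells, was at 39.9 RPKM on 1499 reads. It had 2 reads in the clusters, 0 in both GFP-negative libraries, 1, 0 and 2 in ESC replicates 1 to 3 and 0 in the 3 MEF libraries, of which replicate 3 was listed at 0.001 RPKM. The colonies were thus 666-fold above the clusters (interval 184 to 5500, counting error only). Stra6, the membrane receptor that takes up retinol, was at 4.85 RPKM in the colonies, 0.230 in the clusters, 0.818 and 0.499 in GFP-negative cells, at most 0.0188 in the gene-span ESC libraries and at most 0.0242 in MEF. Its span overlaps Ccdc33 on the other strand over 55036 bases, and Ccdc33 was at most 0.0265 RPKM in the 10 libraries. Stra6 did not pass the filter, and with lengths divided out it was called higher in GFP-negative cells than in MEF (log2 5.82 ± 0.77, limma adjusted p = 0.000915) and than in ESC (5.51 ± 0.77, adjusted p = 0.000307). The colonies held the highest Cyp26a1 and Stra6 of the 10 libraries and the lowest Crabp1 and Crabp2. The primitive endoderm markers Gata4, Gata6 and Foxa2 were at 6.82, 5.39 and 21.6 RPKM in the colonies, against 1.14, 2.90 and 0.0538 in the clusters. Pdgfra, the other list member in the table, was at 8.45 in the colonies, against 21.6 in the clusters. In GFP-negative cells Foxa2 was at 2.08 and 5.25, Gata4 at most 0.0426 and Gata6 at most 1.02. Epithelial markers (4 of 4) summed to 75 in the colonies, against 17.7 in the clusters. The part of both marker lists in these levels was not tested.

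The clusters held some other members of the pathway at their highest. Rdh10, a retinol dehydrogenase of the embryo, was at 6.91 RPKM in the clusters, against 0.407 and 0.634 in GFP-negative cells. The ratio on pooled reads was 13.4 (interval 11.8 to 15.1, counting error only). Rdh14 was at 24.2 RPKM in the clusters, against 0.944 and 0.5465 in GFP-negative cells. Rdh5 went the other way, at 0.048, against 0.748 and 2.16. Rdh12 was also lower in the clusters than in both GFP-negative libraries, and Rdh11 and Rdh13 lay between them. Fabp5 was at 54.3 RPKM in the clusters, against 14.9 and 3.43 in GFP-negative cells, and Rbp4, the retinol carrier of plasma, at 8.49, against 0.0727 and 3.84. Of the endothelial markers (4 of 4), Kdr was at 24.6 RPKM in the clusters, against 0.469 and 0.250 in GFP-negative cells, and Cdh5, Pecam1 and Tek were at 0.00784 or less in the clusters. Of the 35 tested list genes, 6 were more than 2-fold higher and 3 more than 2-fold lower in the clusters than in GFP-negative cells, on the RPKM + 1 scale, where 11.4% of all genes were higher and 13.2% lower (median log2 0.04, over all genes −0.07). In the colonies against the clusters, 6 were higher and 9 lower, where 27.3% of all genes were higher and 12.6% lower (median log2 0.01, over all genes 0.28).

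**Figure D3:**
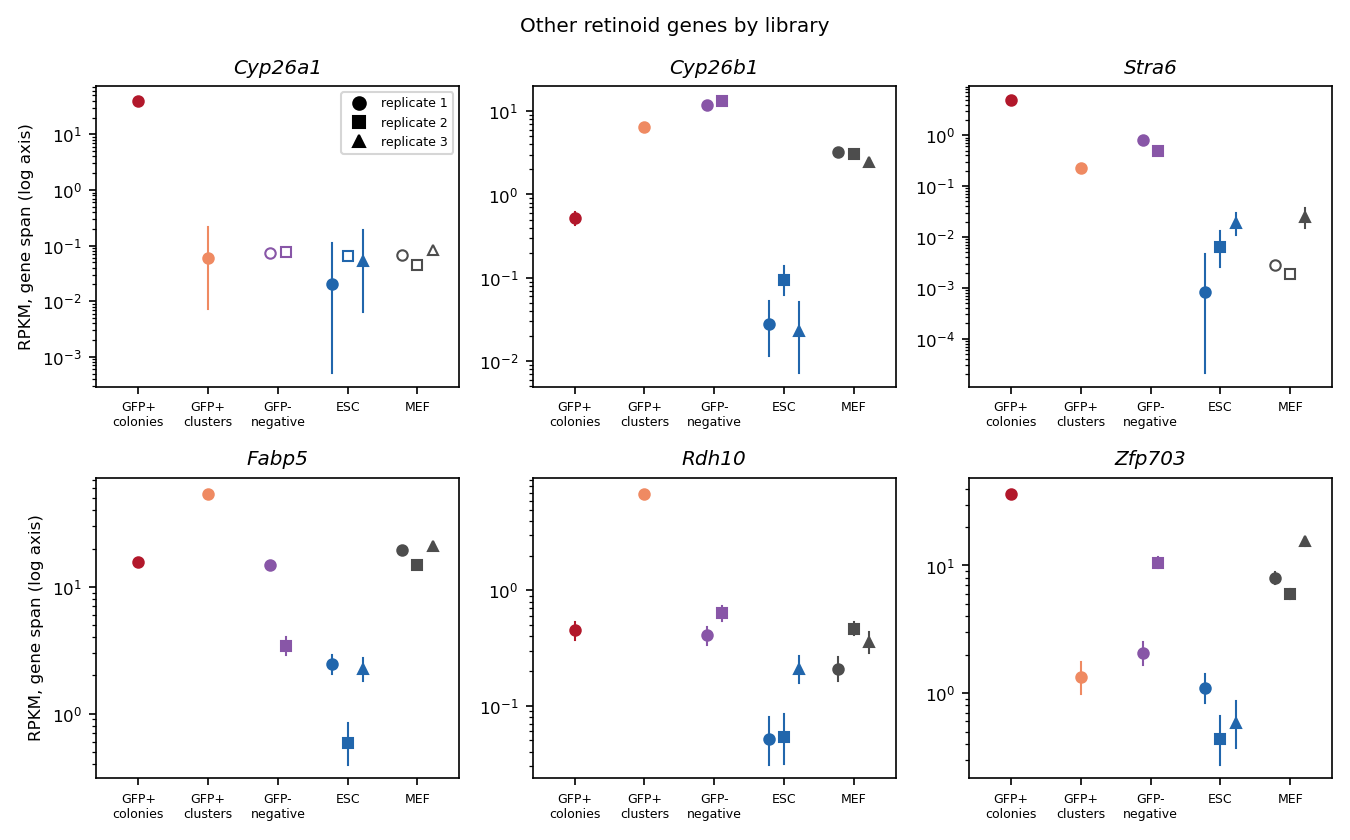
RPKM per kilobase of gene span (log axis) of 6 other retinoid genes in the 10 gene-span libraries, with 95% counting intervals as bars and open symbols at the floor of 3 reads for libraries with no read. Cyp26a1 is at 39.9 RPKM in the colonies and at 2 reads or fewer in the other 9 libraries, whereas Cyp26b1 is highest in GFP-negative cells.

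By Pearson correlation of log2(RPKM + 1) over the 10 gene-span libraries, genes most like Crabp1 included Fgl2 (r = 0.98) and Plin2 (0.98). Fgl2, a secreted fibrinogen-like protein, was at 68.8 and 69.0 RPKM in GFP-negative replicates 1 and 2, against 1.67 to 2.13 in MEF, and at 0.226 in the colonies. Closest to Crabp2 were Nt5e (0.96), Ptgis (0.95) and Mapkbp1 (0.94), closest to Rara were Unk (0.97), Bmf (0.96) and the list's own co-regulator Crebbp (0.95), and closest to Rarg were Ogt (0.95), Srek1 (0.94) and Ptch1 (0.88). The 10 points share groups, library sets and normalization, so these are descriptions.

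On the exon scale, Rarg was the highest of the 6 genes in CiPSC and in ESC replicate 4, and Crabp1 and Rara followed. Crabp1 was at 7.75 and 7.97 RPKM in CiPSC 6 and CiPSC 11, against 8.57 in ESC replicate 4. Rara was at 7.73 and 7.54, against 7.01, and Rarg at 15.7 and 16.8, against 14.5. Crabp2 was at 0.859 and 0.640, against 0.546, Rarb at 0.151 and 0.0991, against 0.0980, and Aldh1a2 at 0.324 and 0.377, against 0.148. Both lines lay above the ESC library for Crabp2, Rara, Rarb, Rarg and Aldh1a2 and below it for Crabp1. For Rarb, CiPSC 11 was all but equal to the ESC library. How many of all genes had both lines on the same side of the ESC library was not counted. Of the 4 genes that passed the filter, 0 were called, and of the 35 list genes 0 were (2 at an unadjusted limma p under 0.05, Cdx1 and Tgm2), in a comparison that called 0.16% of all genes, 0.122% higher and 0.0376% lower. The log2 change was −0.11 for Crabp1 (95% interval −1.24 to 1.02), 0.18 for Crabp2 (−1.89 to 2.24), 0.11 for Rara (−0.79 to 1.01) and 0.16 for Rarg (−1.23 to 1.55), with limma adjusted p = 1 for each. With 1 ESC library and the spread pooled over all groups, differences as large as the limits of these intervals remain possible. Cyp26a1, at 0.0934 and 0.0388 RPKM in CiPSC 6 and CiPSC 11, against 0.0652 in ESC replicate 4, was low in all 3 libraries. The list gene Meis2 did not pass the filter and was picked after its values were seen. It was at 0.1055 and 0.154 RPKM in CiPSC 6 and CiPSC 11, against 1.11 in ESC replicate 4. With no filter its log2 change was −0.90, not called.

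**Figure D4:**
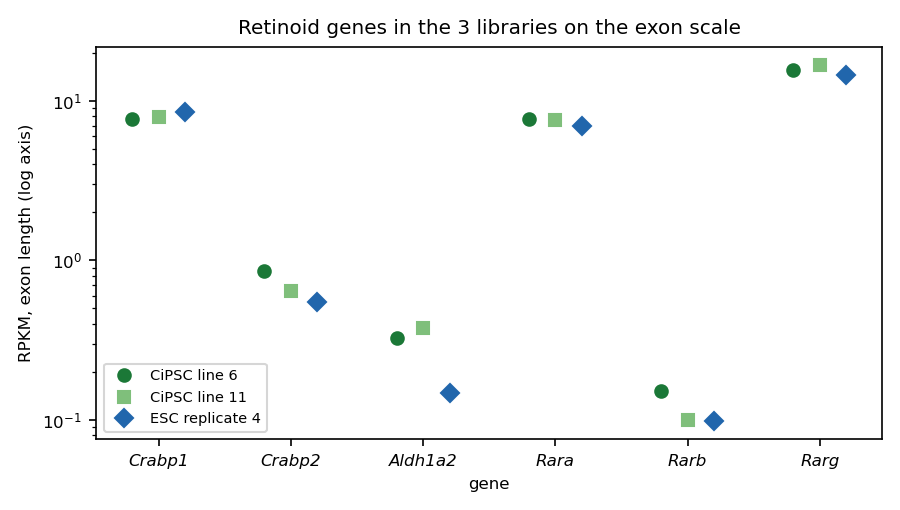
RPKM per kilobase of exon (log axis) of the 6 retinoid genes in CiPSC 6, CiPSC 11 and ESC replicate 4, 1 point per library. Crabp1, Rara and Rarg lie between 7.01 and 16.8 RPKM in all 3 libraries, and the other genes under 1.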

How the data were processed

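The authors deposited RPKM values (reads per kilobase and per M reads, per the file headers) for 13 libraries in 1 table. The submitters' processing notes name TopHat 1.3.0 and mm9, and no source used here names the counter, the annotation or the use of strand. Of 15184 rows, 8 with a shared identifier were dropped, leaving 15176 genes. GENCODE M21 lengths (GRCm38) matched 90.1% of them by symbol. Multiplied by gene span, 76.7 to 82.7% of low values came out as whole reads within 0.05 in 10 libraries, which gave their depth. In CiPSC 6, CiPSC 11 and ESC replicate 4 gene spans would give 2.75 to 2.79 assigned reads per sequenced read, so exonic length was taken as their scale. The depth of these 3 is unknown.

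Read intervals are exact Poisson intervals at 95%, the floor is 3 reads, and both cover counting error only. Tests used limma 3.58.1 in R 4.3.3 on log2(RPKM + 1), a scale that understates changes of low genes, with no scaling between libraries. The model had all 13 libraries, a coefficient for each group, a length-scale term and a trended prior, with 6 residual and 2.58 prior degrees of freedom. It covered the 10647 genes reaching 1 RPKM in 2 libraries, with Benjamini-Hochberg adjustment over them, and was tested on simulated data. A call needed an adjusted p below 0.05 together with a log2 change of at least 1 in size. Clusters and colonies, as single libraries, got no test. P-values measure the spread between these libraries, which may be technical.

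Alternatives were another pseudocount (0.1), no filter, upper-quartile scaling, lengths divided out, a term for the library set, no trend, subsets of libraries, a replicate block and each replicate left out. Those for clusters and colonies were added after the data were seen. The 6 genes, the list of 67 pathway genes, the marker lists and the tests were chosen with earlier results of these data known. The text names the 6 genes, each list gene called in a comparison and the 3 genes that followed each tested member most closely, of which 1 is not reported here. Other list genes named for clusters and colonies, and Meis2 in CiPSC, were picked after their values were seen.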

Additional observations from a re-analysis of the deposited data

How the results depend on the processing

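Crabp1 stayed called higher in GFP-negative cells than in MEF and than in ESC under every alternative run, and no result changed direction while called. Over single genes and settings, calls made in the reported fit were kept in 192 cases and lost in 53. Genes not called there stayed uncalled in 339 cases and were called in 10. With a pseudocount of 0.1 all genes called numbered 1391 in GFP-negative against MEF, 3861 in GFP-negative against ESC, 2590 in ESC against MEF and 3 in CiPSC against ESC (811, 2415, 1695 and 17 as reported). In GFP-negative against ESC this pseudocount called 2 of the 6 genes (4 tested) and 13 of the 35 list genes tested. These counts stand beside 3861 of all 10647 genes tested, so they do not set the list apart. It put 2 of the 6 genes past 2-fold in the clusters and 6 in the colonies, where the share of all genes at this setting was not counted. With lengths divided out the counts were 1802 (618 higher and 1184 lower, 376 and 435 as reported), 4611, 3522 and 0. The 6 genes then gave 2, 3 and 3 calls in the first 3 comparisons, and the list 8, 21 and 20. That fit had its own set of genes, so these counts cannot be set beside the shares of the reported fit. In CiPSC against ESC, no filter gave 50, a term for the library set 33 and no trend 9. Using the gene-span libraries only gave 453 genes in GFP-negative against MEF, 4 list genes in GFP-negative against ESC and 0 of the 6 genes in ESC against MEF. Using exact-0 libraries only gave 343 genes in GFP-negative against MEF. In ESC against MEF the 1 gene called of the 6 among exact-0 libraries, and without MEF replicate 3, was Rarg and not Crabp1. The causes were not tested.

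Leaving out 1 replicate at a time gave 562 to 1499 genes in GFP-negative against MEF, the highest without GFP-negative replicate 2, and 10 to 46 in CiPSC against ESC, the lowest without CiPSC 6 and the highest without ESC replicate 3. It gave 2 to 5 list genes in GFP-negative against MEF, 4 to 8 in GFP-negative against ESC, 0 to 1 of the 6 genes in ESC against MEF and 1 to 2 of them in the clusters, the higher without GFP-negative replicate 2. CiPSC against ESC could not be fitted without ESC replicate 4. Replicate numbers 1 and 2 of the labels did not pair the samples, with correlations of deviations of −0.04 (GFP-negative and MEF), 0.08 (GFP-negative and ESC) and −0.07 (ESC and MEF). A replicate block on these numbers gave 141, 1500 and 812 genes in GFP-negative against MEF, GFP-negative against ESC and ESC against MEF, and 1, 3 and 3 list genes. Of the 6 genes it gave 0 in ESC against MEF. Values under 1 RPKM rest on few reads in short genes, and changes between such values cannot reach a log2 change of 1 on the RPKM + 1 scale.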
